A study of Homo sapiens with 4 samples.

Results

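The miRNAs of cultured MDA-MB-231 cells were compared with those of exosomes purified from MCF-10A cultures. MDA-MB-231 is a triple-negative human breast cancer line with mesenchymal features, and MCF-10A is a non-tumorigenic human mammary epithelial line. Exosomes are vesicles of endosomal origin that leave the cell with RNA inside. Of the 1100 mature miRNA names in the deposited table, 482 (43.8%) had at least 10 reads per 10000000 miRNA reads (RP10M) in 1 of the 2 libraries and were compared. Line and fraction differed together, so a difference between the lines and a difference between cells and vesicles cannot be told apart. Each side was 1 library, so there was no spread between replicates to set a difference against, and p-values are not given.

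Per the labels, MDA-MB-231 was grown in DMEM with 10% fetal bovine serum, and MCF-10A in DMEM/F12 with 5% horse serum, insulin, epidermal growth factor, cholera toxin and hydrocortisone. The labels give neither line a treatment or an engineered allele. Cell RNA was extracted with TRIZOL and exosome RNA with TRIZOL LS, and RNAs of 17 to 52 nt were selected for sequencing. How the exosomes were purified is not given in the sources used here. This series also holds exosomes of MDA-MB-231 and a library labelled MCF-10A cell (the labelled MCF-10A cell library below), whose levels are given beside some results as values. MDA-MB-231 exosomes share the line with 1 side of the comparison and the fraction with the other. In the labelled MCF-10A cell library, 52.2% of the reads lay on miRNAs listed for other tissues, and the part of that content in its other levels was not tested. The compared libraries were paired because they hold the least signal from blood, muscle and placenta miRNAs of the 4, so low shares on those lists restate that choice. Over all 12 lists of other tissues the shares were 0.137% on the MDA-MB-231 side and 0.159% on the MCF-10A side. These include lists outside that choice, such as intestine, kidney and pancreas (0.0642% and 0.0687%).

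Deposited levels are on a log2(RP10M + 1) scale, and a difference is always the MDA-MB-231 cell level minus the MCF-10A exosome level on that scale. A name counted as higher or lower at a difference of 2, which is 4-fold. The recovered depth was about 7346076 miRNA reads for the MDA-MB-231 cells and 1254641 for the MCF-10A exosomes, so that 1 read was worth 1.36 and 7.97 RP10M. A count of 0 allows up to 3 reads, or 4.08 and 23.9 RP10M. A fold against 0 reads is therefore written as at least, with the empty library set at 3 reads. Other folds carry an exact conditional binomial 95% interval on the recovered reads. Intervals cover counting error only, since the PCR reads carry no molecular identifiers and so do not count independent molecules. A bound against 0 reads takes the observed reads of the counted library as exact. A bound near 1 may therefore not leave out no difference.

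A mature miRNA guides Argonaute to messenger RNAs that match its seed, bases 2 to 8 from the 5′ end, and members of a family share a seed or have closely related ones. Families that hold mammary cells in an epithelial state (miR-200, miR-205) repress the ZEB transcription factors, which drive the mesenchymal state. The let-7 family restrains growth genes such as RAS and HMGA2, and miR-21 is an oncogenic miRNA abundant in most breast cancer lines. Cells load some miRNAs into exosomes more than others, so a vesicle need not hold the mixture of the cell that released it.

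The mature sequences on which the results turn are shown first, from RefSeq (GRCh38.p14), 5′ to 3′, with the seed in capitals. The miR-200 family is shown because its members come from a pair of loci and differed unequally. It holds 1 seed in miR-200c, miR-200b and miR-429 and another in miR-141 and miR-200a.
miR-200c: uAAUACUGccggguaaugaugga
miR-200b: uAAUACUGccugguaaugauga
miR-429: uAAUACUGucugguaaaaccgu
miR-141: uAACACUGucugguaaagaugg
miR-200a: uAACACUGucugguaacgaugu
The next set holds the miRNAs of skin and basal epithelium and of the miR-183-96-182 cluster, whose levels were lower in the MDA-MB-231 cells, with 6 different seeds.
miR-205: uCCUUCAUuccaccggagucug
miR-31: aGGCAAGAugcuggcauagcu
miR-203: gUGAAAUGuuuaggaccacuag
miR-182: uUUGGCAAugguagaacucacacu
miR-183: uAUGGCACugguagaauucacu
miR-96: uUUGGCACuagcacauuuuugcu
These let-7 members share 1 seed, yet let-7b and let-7i differed in opposite directions.
let-7a: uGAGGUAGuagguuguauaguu
let-7b: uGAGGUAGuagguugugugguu
let-7f: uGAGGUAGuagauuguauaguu
let-7g: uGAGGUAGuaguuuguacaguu
let-7i: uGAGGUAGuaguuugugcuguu
The miR-146 pair shares its seed, and miR-146a was called higher while miR-146b-5p lay within 4-fold.
miR-146a: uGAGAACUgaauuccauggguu
miR-146b-5p: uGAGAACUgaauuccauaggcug
The remaining sequences are those of miRNAs with large differences in either direction, ordered from the higher in the MDA-MB-231 cells to the lower.
miR-105: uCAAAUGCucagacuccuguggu
miR-767-5p: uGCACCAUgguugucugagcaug
miR-455-5p: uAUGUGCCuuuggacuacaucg
miR-138: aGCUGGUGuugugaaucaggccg
miR-424: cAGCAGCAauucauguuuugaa
miR-10a: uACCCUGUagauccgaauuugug
miR-301a: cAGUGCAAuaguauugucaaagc
miR-30a: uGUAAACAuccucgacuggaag
miR-196a: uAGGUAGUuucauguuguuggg
miR-335: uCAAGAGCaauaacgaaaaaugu
miR-196b: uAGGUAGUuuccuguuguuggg

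Over the 482 names, 128 (26.6%) were at least 4-fold higher in the MDA-MB-231 cells, 93 (19.3%) were at least 4-fold lower, and 261 (54.1%) lay within 4-fold. Called names in either direction were thus 45.9% of those compared. The median difference was 0.27, with quartiles of −1.39 and 2.12, and the differences ran from −13.56 for miR-205 to 15.69 for miR-886-5p. In all, 152 names (31.5%) were within 2-fold of each other. In bulk RNA, fewer cells or vesicles that hold a miRNA and less of it in each cannot be told apart.

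At low levels the calls rest on unequal depth. The minimum of 10 RP10M equals 7.35 reads in the MDA-MB-231 cells but 1.25 reads in the MCF-10A exosomes. It was passed in the MDA-MB-231 cells only by 81 names, in the MCF-10A exosomes only by 72 and in both by 329. All 62 names at 0 in the MCF-10A exosomes were called higher, of which 31 had a level in the MDA-MB-231 cells at or under that floor of 23.9 RP10M and 10 had a bound of 4-fold or more. All 27 names at 0 in the MDA-MB-231 cells were called lower, and 19 had such a bound. A stricter rule asked for 10 or more reads in 1 library, a 4-fold ratio and a counting interval that leaves out no difference. A name at 0 on 1 side meets its 4-fold ratio by that 0 alone, whatever its bound. By this read rule 92 names (19.1%) were higher and 51 (10.6%) lower, or 29.7% either way. Of these, 89 and 51 were called by the first rule as well. The share of names called fell from 55.0% where the higher level was 10 to 100 RP10M (189 names) to 35.6% at 1000 to 100000 (135 names), and was 47.4% among the 19 names over 100000. At the minimum itself stood miR-516a-5p, miR-1908 and miR-195*, each at 8 reads in the MDA-MB-231 cells and 10.9 RP10M. Just below it, at 9.56, stood let-7f-2*, miR-1280 and miR-1283.

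**Figure D1:**
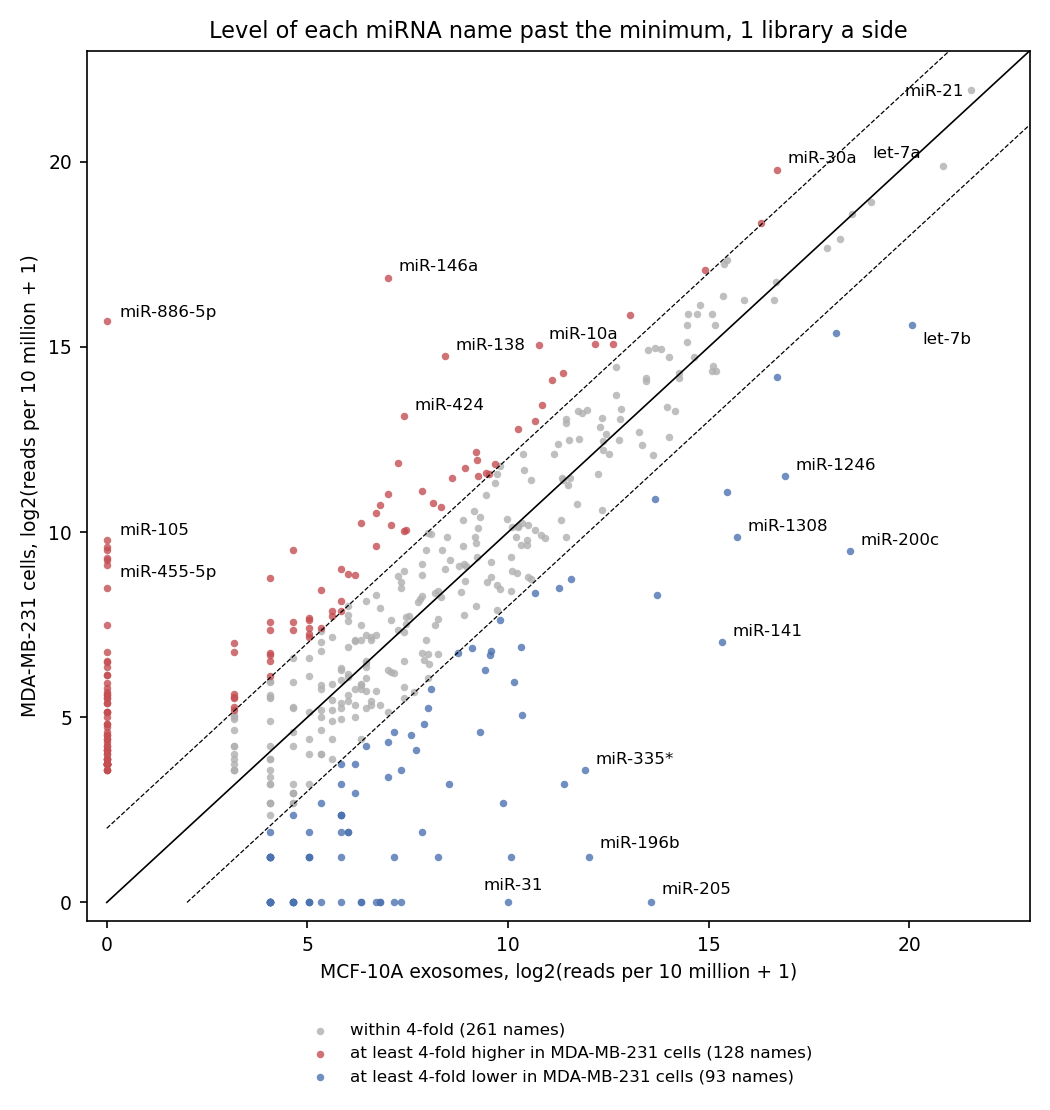
Level of each of the 482 names in the MCF-10A exosomes (horizontal axis) and in the MDA-MB-231 cells (vertical axis), both as log2(RP10M + 1), with 1 library a side. Points are coloured by the 4-fold rule, the solid line is equality and the dashed lines are 4-fold; miR-205 and miR-31 lie at 0 in the MDA-MB-231 cells, miR-886-5p and miR-105 at 0 in the MCF-10A exosomes.

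A few miRNAs made up most of each library. The 10 leading names held 79.1% of the reads of the MDA-MB-231 cells and 83.2% of those of the MCF-10A exosomes, and 6 names were in both sets. miR-21, which represses PDCD4, led both libraries, at 40.3% of reads in the MDA-MB-231 cells (Wilson 95% interval 40.2 to 40.3) and 30.5% in the MCF-10A exosomes (30.4 to 30.6). Its difference was 0.40, inside 2-fold. miR-100 (3.95% and 3.87%), let-7f (4.96% and 5.39%), miR-378 (2.46% and 3.14%) and miR-30d (2.09% and 2.52%) also took like shares of both.

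Among the leading names of the MDA-MB-231 cells, miR-30a, whose family targets the mesenchymal factor SNAI1, stood at 19.79 against 16.71 in the MCF-10A exosomes. That was 9.07% of reads against 1.07%, or 8.46-fold more (8.28 to 8.63). miR-24 was 4.14-fold higher (4.05 to 4.24), at 3.37% against 0.813%, a call that did not hold under upper-quartile scaling. Also higher, though inside 4-fold, were miR-103 (1.66% against 0.448%) and miR-27a (1.56% against 0.426%). On the other side, let-7b took 10.9% of the reads of the MCF-10A exosomes and 0.494% of those of the MDA-MB-231 cells. In the MCF-10A exosomes miR-200c (3.76%), miR-182 (2.93%) and miR-1246 (1.23%) were among the 10 leading names as well, against 0.00719%, 0.427% and 0.0294% in the MDA-MB-231 cells.

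**Figure D2:**
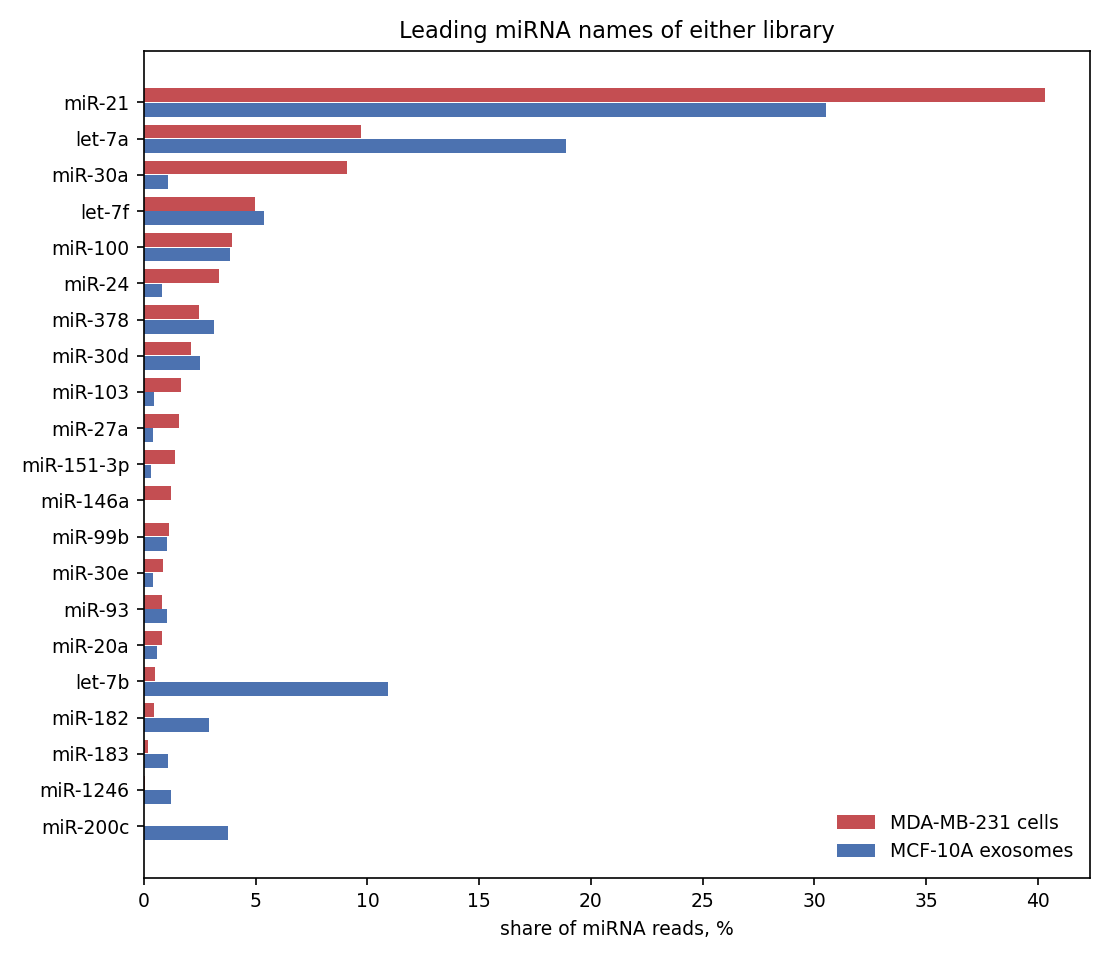
Share of all miRNA reads, in percent, for the leading names of either library, with red bars for the MDA-MB-231 cells and blue bars for the MCF-10A exosomes (1 library each). miR-21 leads both (40.3% and 30.5%); miR-30a (9.07% and 1.07%) and let-7b (0.494% and 10.9%) differ in opposite directions.

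The miRNAs of the epithelial state gave some of the lowest differences. Over the 3 epithelial lists, 11 names together held 0.676% of the reads of the MDA-MB-231 cells (0.669 to 0.681) and 8.45% of those of the MCF-10A exosomes (8.40 to 8.50). Within these sums the miR-183-96-182 cluster held 0.63% and 4.03%, and the miR-200 family 0.0459% and 4.26%. The 11 names held 0.57% in the MDA-MB-231 exosomes and 1.06% in the labelled MCF-10A cell library. By list, 2 of 5 members of the miR-200 family, 3 of 3 of skin and basal epithelium and 2 of 3 of the miR-183-96-182 cluster were lower, and none was higher. The medians were −1.73, −10.01 (−8.19 with names at 0 set at 3 reads) and −2.52, against 0.27 over all names. The same 7 names were lower by the read rule. Over all 482 names, 19.3% were lower by the 4-fold rule and 10.6% by the read rule.

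miR-200c stood at 9.49 in the MDA-MB-231 cells, 18.52 in the MCF-10A exosomes, 9.78 in the MDA-MB-231 exosomes and 15.38 in the labelled MCF-10A cell library. Both libraries of MDA-MB-231 were low and both labelled MCF-10A were high. The share in the MDA-MB-231 cells was 523-fold lower than in the MCF-10A exosomes (478 to 573). miR-141, its neighbour on chromosome 12, stood at 7.03, 15.33, 6.81 and 14.58 in that order of libraries, 318-fold lower (259 to 396).

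The other members of the family were much closer. miR-200b stood at 10.60 in the MDA-MB-231 cells and 12.33 in the MCF-10A exosomes, 3.32-fold lower (3.0 to 3.67). For miR-200a the levels were 10.34 and 11.32 (1.97-fold, 1.73 to 2.25), and for miR-429 they were 9.80 and 10.47 (1.59-fold, 1.34 to 1.89). These levels were read from 1139, 951 and 654 reads in the MDA-MB-231 cells, so that these members were well above the floor there. The split ran by locus and not by seed. MIR200C and MIR141 lie together at chr12:6963699-6964191 (GRCh38.p14, plus strand, an intron of the lincRNA MIR200CHG) and had differences of −9.03 and −8.30. MIR200B and MIR429 lie at chr1:1167104-1169087, also on the plus strand, and had differences of −1.73 and −0.67, although miR-200b and miR-200c share their seed. Thus miR-200b was the most abundant member in the MDA-MB-231 cells, whereas miR-200c led the family in the MCF-10A exosomes.

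miR-205, which marks basal mammary epithelium, had 0 reads in the MDA-MB-231 cells and 1515 in the MCF-10A exosomes, at least 2957-fold lower. Its levels were 0, 13.56, 3.81 (the MDA-MB-231 exosomes) and 12.58 (the labelled MCF-10A cell library). miR-31, reported to restrain breast cancer metastasis through RHOA and integrin subunits, had 0 reads against 129, at least 252-fold lower. It was also at 0 in the MDA-MB-231 exosomes and stood at 7.46 in the labelled MCF-10A cell library. miR-203, a miRNA of keratinocyte differentiation, had 6 reads against 337 and was 328-fold lower (149 to 906). The star arms of the first pair, miR-205* and miR-31*, had 0 reads in the MDA-MB-231 cells against 18 and 14.

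In the miR-183-96-182 cluster, known from sensory organs and raised in many carcinomas, the differences were smaller. miR-182 stood at 15.38 against 18.16 (6.87-fold lower, 6.74 to 7) and miR-183 at 14.18 against 16.70 (5.74-fold, 5.58 to 5.90). miR-96 was 1.97-fold lower (1.76 to 2.21), with 10.75 against 11.73. Here the labelled MCF-10A cell library was low as well, at 11.29, 10.65 and 9.46. For this cluster the MCF-10A exosomes were thus the highest of all 4 libraries.

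**Figure D3:**
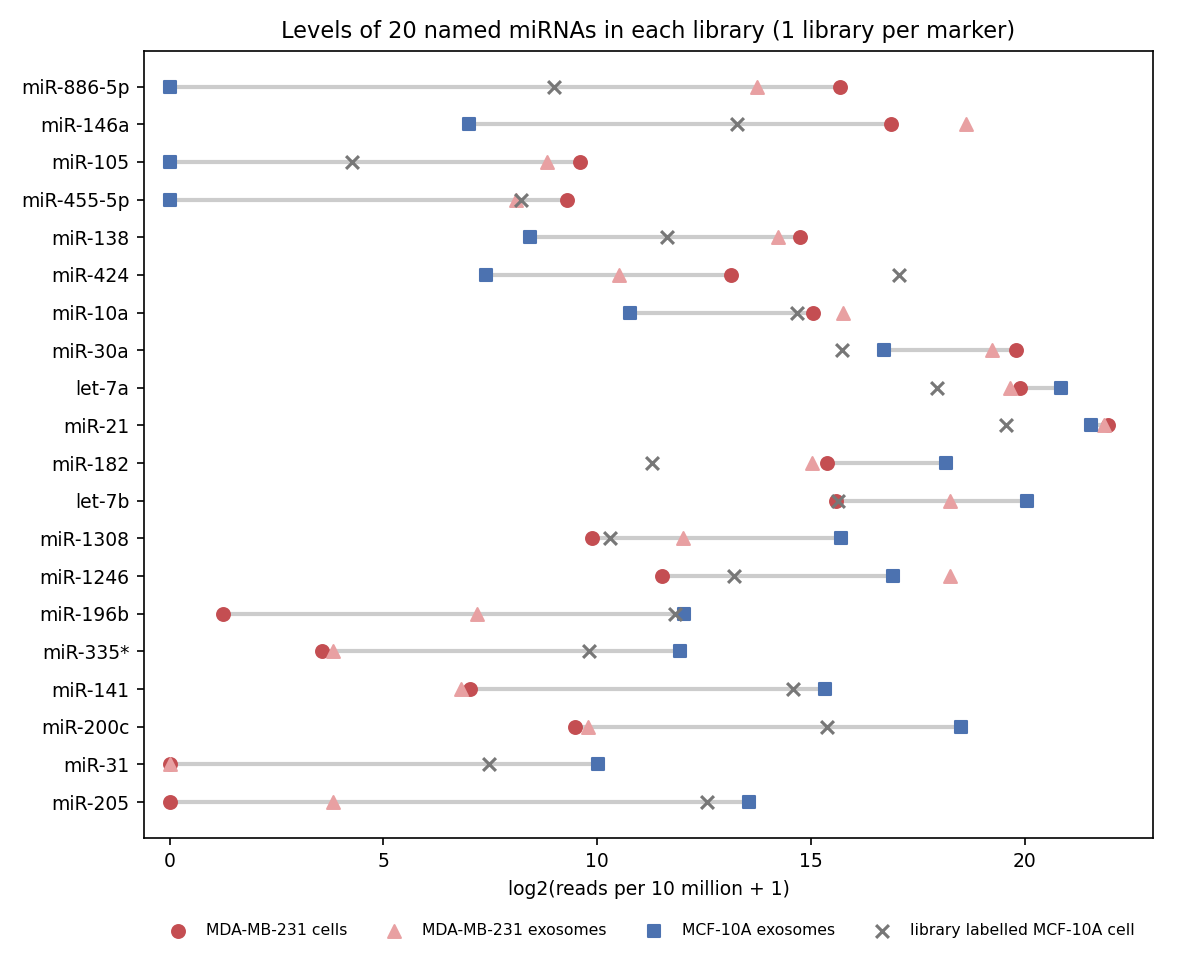
Levels of 20 named miRNAs as log2(RP10M + 1) (horizontal axis), with 1 marker per library and a grey line joining the MDA-MB-231 cells to the MCF-10A exosomes. For miR-200c, miR-141, miR-31 and miR-335* the MDA-MB-231 exosomes lie within 0.3 of the MDA-MB-231 cells, while for let-7b and miR-196b they lie between the compared libraries, and for miR-146a and miR-1246 above both.

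The let-7 family, measured in 9 members of 1 seed, held 16.7% of the reads of the MDA-MB-231 cells and 36.4% of those of the MCF-10A exosomes. Counted by name the family was near balance, with 1 member higher, 1 lower, 7 within 4-fold and a median of 0.11. Of all names, 54.1% were within 4-fold. The difference in share lay mainly in 2 members. let-7a took 9.72% against 18.9%, a difference of −0.96 that was inside 2-fold (1.95-fold lower, 1.93 to 1.96). let-7b stood at 15.59 in the MDA-MB-231 cells, 20.06 in the MCF-10A exosomes, 18.25 in the MDA-MB-231 exosomes and 15.63 in the labelled MCF-10A cell library, and was 22.2-fold lower (21.8 to 22.5). Both exosome libraries were above both cell libraries for let-7b. let-7i went the other way, at 14.30 in the MDA-MB-231 cells and 11.36 in the MCF-10A exosomes (7.68-fold higher, 6.85 to 8.61). MIRLET7B lies at chr22:46113686-46113768 in an exon of MIRLET7BHG, and MIRLET7I at chr12:62603686-62603769. The star arm let-7b* was lower too, with 4.82 against 7.91.

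The miR-15/16 family, which targets cyclins and BCL2, leaned to the MDA-MB-231 cells. Of 6 members past the minimum (7 in the table), 4 were higher and none lower, 3 of them by the read rule, with a median of 3.03 (1.78 with names at 0 set at 3 reads). Over all names 26.6% were higher, or 19.1% by the read rule. Of the 4, miR-497 had 20 reads against 0, a bound of 1.14-fold, but its counting interval did not leave out no difference. The call of miR-15b did not hold under upper-quartile or trimmed mean scaling. miR-424 stood at 13.14 against 7.4, which was 53.8-fold higher (35.1 to 87.5). It stood at 10.52 in the MDA-MB-231 exosomes and 17.05 in the labelled MCF-10A cell library, so the MCF-10A exosomes were the lowest of the 4. miR-503, from the same locus (chrX:134540185-134546711, GRCh38.p14, minus strand), was 16.3-fold higher (10.0 to 28.8). The abundant members miR-16 (2.62-fold higher, 2.38 to 2.90) and miR-15a (2.85-fold, 2.55 to 3.19) were inside 4-fold.

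All 5 members of the miR-130 and miR-301 family, with the seed AGUGCAA in the 4 whose sequence was matched, were higher by both rules, with a median of 2.63. The shares over all names were 26.6% and, by the read rule, 19.1%. miR-301a was 14.1-fold higher (8.16 to 26.6), with 1070 reads in the MDA-MB-231 cells against 13. miR-130b (6.98-fold, 5.40 to 9.19), miR-454 (6.22-fold, 4.04 to 10.2) and miR-130a (5.74-fold, 4.86 to 6.79) followed, and miR-301b was lowest (4.42-fold, 1.97 to 12.3). MIR301A and MIR454 lie in introns of SKA2 on chromosome 17, and MIR130B on chromosome 22. The family was a small part of both libraries, at 0.132% and 0.0203% of reads.

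The next growth families had medians above that of all names (0.27), though few of their members were called. Their counts of higher members stand beside 26.6% higher over all names. In the miR-30 family 1 of 5 members (miR-30a) was higher, with a median of 1.02, and the family held 12.4% against 4.20% of reads. In the miR-29 family, which represses collagens, 1 of 3 was higher, with a median of 1.40. There miR-29b stood at 14.12 against 11.10 (8.11-fold higher, 7.18 to 9.22), while miR-29a (2.64-fold, 2.53 to 2.75) and miR-29c (1.49-fold, 1.08 to 2.10) were inside 4-fold. The miR-181 family had 2 of 4 members higher (median 2.20), namely the least abundant, miR-181d (15.3-fold, 8.24 to 32.1) and miR-181c (8.70-fold, 3.66 to 27). Of the miR-23/27/24 clusters 1 of 5 was higher (median 1.52). The miR-103 and miR-107 pair (median 1.94) had no member called.

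The MYC-driven miR-17-92 cluster and its paralogs had 1 of 14 members higher and 13 within 4-fold, with a median of 0.43. Over all names 26.6% were higher and 54.1% within 4-fold. The member called, miR-363, had 25 reads in the MDA-MB-231 cells and 0 in the MCF-10A exosomes, at least 1.42-fold higher. Its abundant members stayed close, with miR-20a at 16.28 against 15.87, miR-17 at 15.60 against 15.16, and miR-93 at 16.28 against 16.63. The miR-99/100 and miR-125 group had 1 of 5 higher and a median of 0.09, which turned below 0 under upper-quartile scaling. Its miR-99a was 4.47-fold higher (3.65 to 5.51), while miR-100 stood at 18.59 against 18.56. No member of the miR-148 and miR-152 family (3, median 0.52), the miR-26 pair (median 0.17), the miR-191 and miR-425 cluster (median −0.24) or the miR-221 and miR-222 pair (median −0.33) was called. Among the 40 names with the highest mean level, miR-100 and miR-148a (14.31 against 14.27) had differences of 0.03 and 0.04, whose sign depended on the scaling.

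The miR-34 and miR-449 family, whose member miR-34a is induced by p53, had 3 of 6 members past the minimum, of which miR-34a was lower (74 reads against 94; 7.42-fold, 5.41 to 10.3). miR-34c-5p and miR-449a were within 4-fold. Of all names, 19.3% were lower. In the miR-224 and miR-452 cluster on chromosome X, miR-224 was 6.78-fold lower (6.29 to 7.31), with 10.89 against 13.65, and miR-452 2.87-fold lower (2.69 to 3.06).

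**Figure D4:**
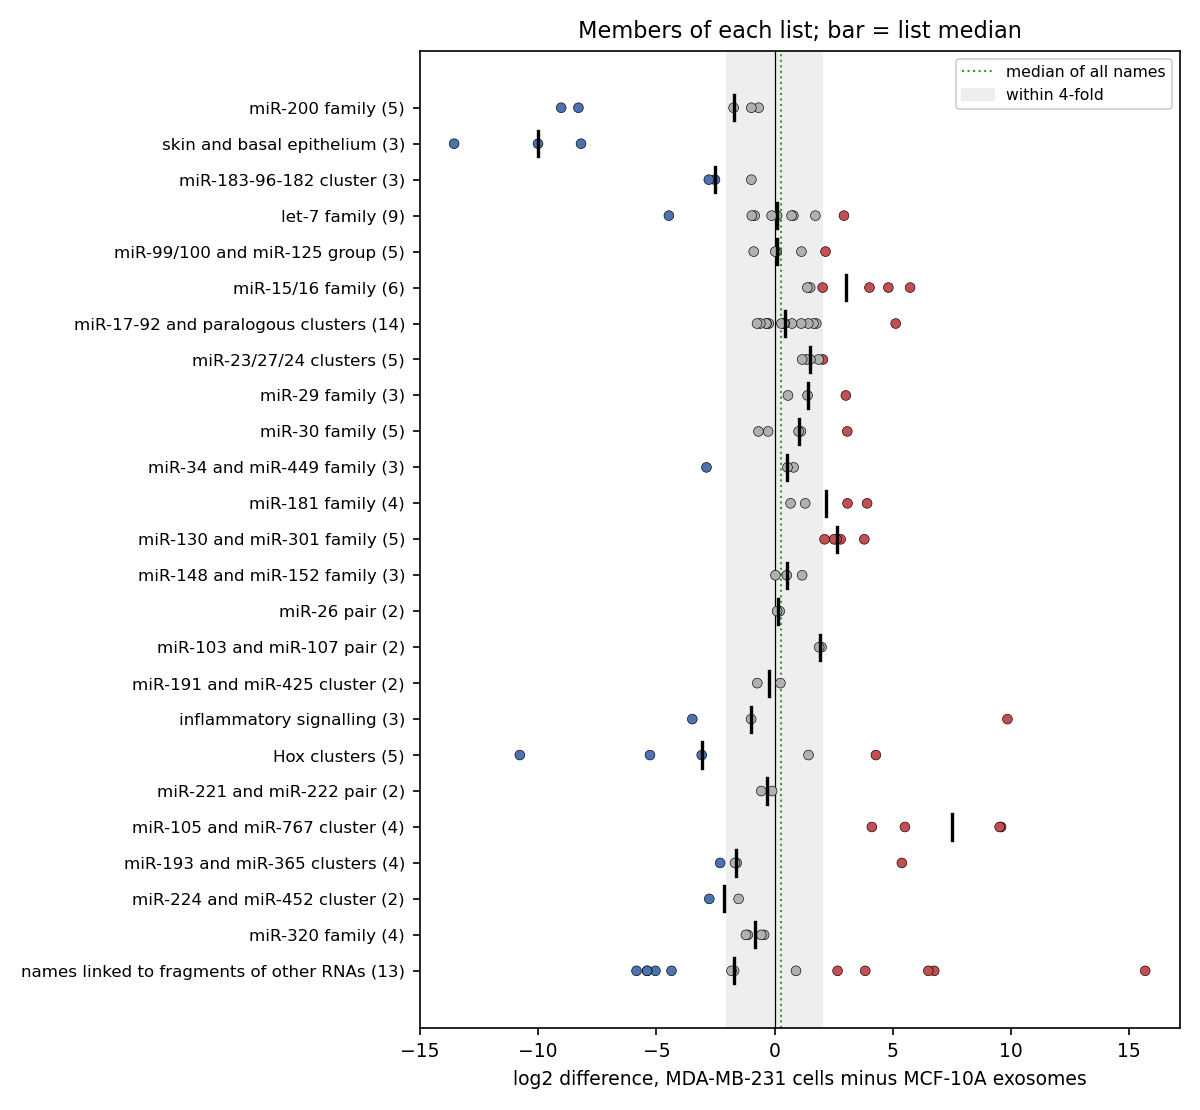
Difference of each member past the minimum (points; log2, MDA-MB-231 cells minus the MCF-10A exosomes, horizontal axis) in each list, with the list median as a black bar, the median of all names (0.27) as a dotted line and the 4-fold range shaded. Skin and basal epithelium lies wholly below the range and the miR-130 and miR-301 family wholly above it, while let-7 and the miR-17-92 clusters lie mostly within it.

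Among miRNAs of inflammatory signalling, miR-146a, an NF-κB-induced brake on IRAK1 and TRAF6, stood at 16.87 in the MDA-MB-231 cells and 7.01 in the MCF-10A exosomes. It took 1.20% of the reads of the MDA-MB-231 cells, with 16 reads in the MCF-10A exosomes, and was 937-fold higher (576 to 1649). In the MDA-MB-231 exosomes it reached 18.63, and in the labelled MCF-10A cell library 13.26. miR-146b-5p, of the same seed, was 1.99-fold lower (1.86 to 2.12), at 12.34 against 13.33. miR-155 had 3 reads against 7 (13.6-fold lower, 3.12 to 81.9), too few for the read rule. The list thus had 1 member higher, 1 lower and 1 within, against 26.6%, 19.3% and 54.1% of all names.

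The miRNAs of the Hox clusters, which lie between homeobox genes and act in patterning, also split. miR-10a stood at 15.05 against 10.76 and was 19.6-fold higher (17.1 to 22.6). miR-196b had 1 read in the MDA-MB-231 cells and 521 in the MCF-10A exosomes, a ratio of 3049-fold lower (543 to 121136). Its levels were 1.24, 12.02, 7.18 (the MDA-MB-231 exosomes) and 11.83 (the labelled MCF-10A cell library). miR-196a, of the same seed, was 39.7-fold lower (25.6 to 63.7), with 24 reads against 162, and miR-10b 8.80-fold lower (4.48 to 17.7), with 16 against 24. MIR10A lies at chr17:48579838-48579947 in a HOXB3 intron, MIR196B at chr7:27169480-27169563 overlapping an exon of HOXA9, and copies of miR-196a lie in the HOXB and HOXC clusters. Of 5 members past the minimum, 1 was higher, 3 lower and 1 within, with a median of −3.08. Over all names 26.6% were higher and 19.3% lower.

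The miR-105 and miR-767 cluster on chromosome X, in an intron of GABRA3, was at 0 reads in the MCF-10A exosomes for all 4 names. miR-105, known as a secreted miRNA of metastatic breast cancer that targets the tight junction protein ZO-1, stood at 9.59 in the MDA-MB-231 cells (565 reads), at least 32.2-fold higher. miR-767-5p stood at 9.53 (542 reads), at least 30.9-fold higher. In the MDA-MB-231 exosomes miR-105 stood at 8.82 and miR-767-5p at 7.41. Their levels in the labelled MCF-10A cell library were 4.27 and 2.48. miR-105* had 33 reads (at least 1.88-fold), and miR-767-3p 12 reads, a level under the floor of 3 reads in the MCF-10A exosomes. The read rule called all but miR-767-3p, against 19.1% higher by that rule over all names. The hypoxia miRNA miR-210 was close, at 9.20 against 9.57 (1.29-fold lower, 1.02 to 1.62).

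Several further names were at 0 in the MCF-10A exosomes and well counted in the MDA-MB-231 cells. miR-1270 stood at 9.79 (at least 37.0-fold higher), miR-455-5p at 9.29 (at least 26.1-fold), miR-421 at 9.25 (at least 25.4-fold) and miR-573 at 8.49 (at least 15.0-fold). Both arms of the miR-455 hairpin, which lies in an intron of the collagen gene COL27A1, were high, as miR-455-3p stood at 9.11 (at least 23.1-fold). In the MDA-MB-231 exosomes, at a depth close to that of the MCF-10A exosomes, miR-1270 stood at 9.39, miR-455-5p at 8.10, miR-421 at 7.47 and miR-455-3p at 5.90, but miR-573 at 0. miR-573, from an intron of DHX15, was also at 0 in the labelled MCF-10A cell library, so that the MDA-MB-231 cells alone had reads (263). miR-138, known from neurons, had reads on both sides and was 80.1-fold higher (59.5 to 112), at 14.75 against 8.43.

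On the low side, both arms of the miR-335 hairpin, in an intron of the imprinted gene MEST, were lower in the MDA-MB-231 cells. miR-335, reported as a suppressor of breast cancer metastasis, had 1 read against 136 (794-fold lower, 140 to 31790). miR-335* had 8 reads against 489 (359-fold lower, 180 to 837). In the MCF-10A exosomes the star arm was thus the more abundant, at 11.93 against 10.08, whereas in the labelled MCF-10A cell library it was the less abundant (9.81 against 12.09). Also lower were miR-187 (1 read against 38; 223-fold, 37.6 to 9016) and miR-1293, with 0 reads against 13 (at least 25.4-fold) and 0 reads in both other libraries.

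The miR-193 and miR-365 clusters, with 4 members past the minimum, had 1 higher (miR-193a-3p, 30 reads against 0, at least 1.71-fold), 1 lower (miR-365, 4.94-fold, 4.06 to 5.99) and a median of −1.63. Over all names 26.6% were higher and 19.3% lower. The miR-320 family, made without Drosha, had none of 4 called and a median of −0.85.

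miRBase names since traced to pieces of other RNAs had 5 of 13 members higher and 5 lower, against 26.6% and 19.3% of all names, with a median of −1.71. They took 0.609% of the reads of the MDA-MB-231 cells and 2.37% of those of the MCF-10A exosomes. The higher end held miR-886-5p, a piece of a vault-like non-coding RNA. It had 52863 RP10M in the MDA-MB-231 cells and 0 in the MCF-10A exosomes, at least 2211-fold higher, and stood at 13.75 in the MDA-MB-231 exosomes. miR-886-3p had 66 reads against 0 (at least 3.77-fold). The lower end held miR-1308 (57.3-fold, 52.8 to 62.3), miR-1975 (42.1-fold, 36.6 to 48.7), miR-1246 (41.9-fold, 39.9 to 44.0) and miR-1979 (20.5-fold, 19.4 to 21.8). In the MDA-MB-231 exosomes miR-1246 stood at 18.25, miR-1975 at 13.51, miR-1979 at 13.96 and miR-1308 at 12.00, each above its level in the MDA-MB-231 cells (11.52, 8.31, 11.09 and 9.87). For these 4 names both exosome libraries were thus above the MDA-MB-231 cells. Both exosome libraries also exceeded the labelled MCF-10A cell library (13.20, 11.76, 11.84 and 10.30). These 4 do not stand for the list. Over its 13 members, the level in the MDA-MB-231 cells minus that in the MDA-MB-231 exosomes had a median of 0.00.

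Markers of other tissues give no independent check of these libraries, which were chosen for little signal from blood, muscle and placenta miRNAs. Of 158 such names in the table, 42 passed the minimum, with 8 higher, 18 lower and 16 within 4-fold and a median of −1.65, against 26.6% higher and 19.3% lower over all 482 names. By the read rule 4 were higher and 5 lower, against 19.1% and 10.6% over all names. Over the leukocyte list, the MDA-MB-231 cells had 1169 RP10M in all and the MCF-10A exosomes 1495. miR-150 and miR-223, which mark lymphoid and myeloid cells, had 0 reads in the MDA-MB-231 cells against 20 and 14 (at least 39.2-fold and 27.2-fold lower). miR-142-3p stood at 10.15 against 10.10. For the erythroid list the sums were 163 and 232 RP10M, and the defining miR-451 stood at 2.35 and 4.08, at or under 3 reads in each. Muscle miRNAs summed to 10.9 and 15.9, and miR-133a, miR-206 and the miR-208 and miR-499 names did not pass the minimum. Of the 36 names listed for the placental 19q13 cluster, a list that leaves out star names and some arms of that locus such as miR-519b-5p and miR-519c-5p, 3 passed, all with 0 reads in the MCF-10A exosomes and under its floor, and of the Xq27 cluster 3 of 16, lower but none by the read rule. Mesenchymal (3 of 7 past the minimum) and endothelial names (2 of 2) had none called, and the endothelial miR-126 stood at 11.40 against 11.36, with a sign that depended on the scaling. None of 9 embryonic stem cell names passed. Of the 53 names of the imprinted 14q32 cluster, 10 passed and 9 were lower, 1 of them (miR-379, 1 read against 18) by the read rule. The 14q32 and Xq27 names passed only through the MCF-10A exosomes, where the minimum is 1.25 reads. That filter favours lower calls, so these counts are no result about the clusters. Summed over each list, the MDA-MB-231 cells had 16.4 RP10M (14q32) and 10.9 RP10M (Xq27). miR-122, the main liver miRNA, stood at 4.42 against 6.33 (15 reads against 10 at the unequal depths; 3.89-fold lower, 1.57 to 9.29), while it stood at 14.79 in the MDA-MB-231 exosomes. Among neural names, miR-9 was 15.2-fold higher (8.94 to 27.8) and miR-137 7.17-fold lower (6.14 to 8.39).

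Of 24 loci where hairpins within 10000 bases on 1 strand gave 2 or more names, 14 had all names within 4-fold of each other. A like share for names of different loci was not computed, so the count does not show that neighbours differ alike. Of all names, 54.1% lay within 4-fold between the libraries. The 19q13 locus among the 14 had 3 names, all at 0 reads in the MCF-10A exosomes and under its floor. miR-23b and miR-27b had differences of 1.52 and 1.35, miR-181c and miR-181d 3.09 and 3.92, and miR-222 and miR-221 −0.56 and −0.10. The miR-374b and miR-421 pair, 2 hairpins in an intron of the lincRNA FTX (chrX:74218377-74218618), was the widest apart, with −0.67 for miR-374b and 9.25 for miR-421, the latter against 0 reads. On the cluster with miR-424 the range was from 1.37 for miR-450b-5p to 5.74 for miR-424, with all 4 members above 0. Among these, miR-23b, miR-374b and miR-450b-5p, and miR-503 above, lay outside the naming rule and were chosen after their values were seen.

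Star names, given to the arm of a hairpin taken as the less often kept, held 1.62% of the reads of the MDA-MB-231 cells. They held 0.501% of those of the MCF-10A exosomes and 0.908% of those of the MDA-MB-231 exosomes. Of 109 star names past the minimum, 35 were higher and 15 lower, with a median of 0.74, against 93 higher and 78 lower of 373 other names, with a median of 0.10. miR-30a* (15.87 against 13.03) and miR-374a* (15.08 against 12.17) alone held 58.3% of the star reads of the MDA-MB-231 cells. Both were chosen after their values were seen. The unstarred miR-374a stood at 9.96 against 8.09, below miR-374a* in each library, so a star name need not be the lesser arm.

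Both arms of 64 hairpins with a star name could be compared, and the star arm lay further toward the MDA-MB-231 cells in 41 and toward the MCF-10A exosomes in 23, with a median gap of 0.47. The arms were 4-fold or more apart in 12 pairs, toward the MDA-MB-231 cells in 10 and toward the MCF-10A exosomes in 2. With both arms above 0 in both libraries, 57 pairs remained, and the counts were 6 and 2. miR-100 gives a well-counted case. Its main arm stood at 18.59 against 18.56, and miR-100* at 10.19 against 7.09 (8.63-fold higher, 5.33 to 14.9). The opposite case was miR-193b*, at 4.59 against 9.30 (27.3-fold lower, 15.9 to 49.2) while miR-193b was 3.19-fold lower (2.57 to 3.98).

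**Figure D5:**
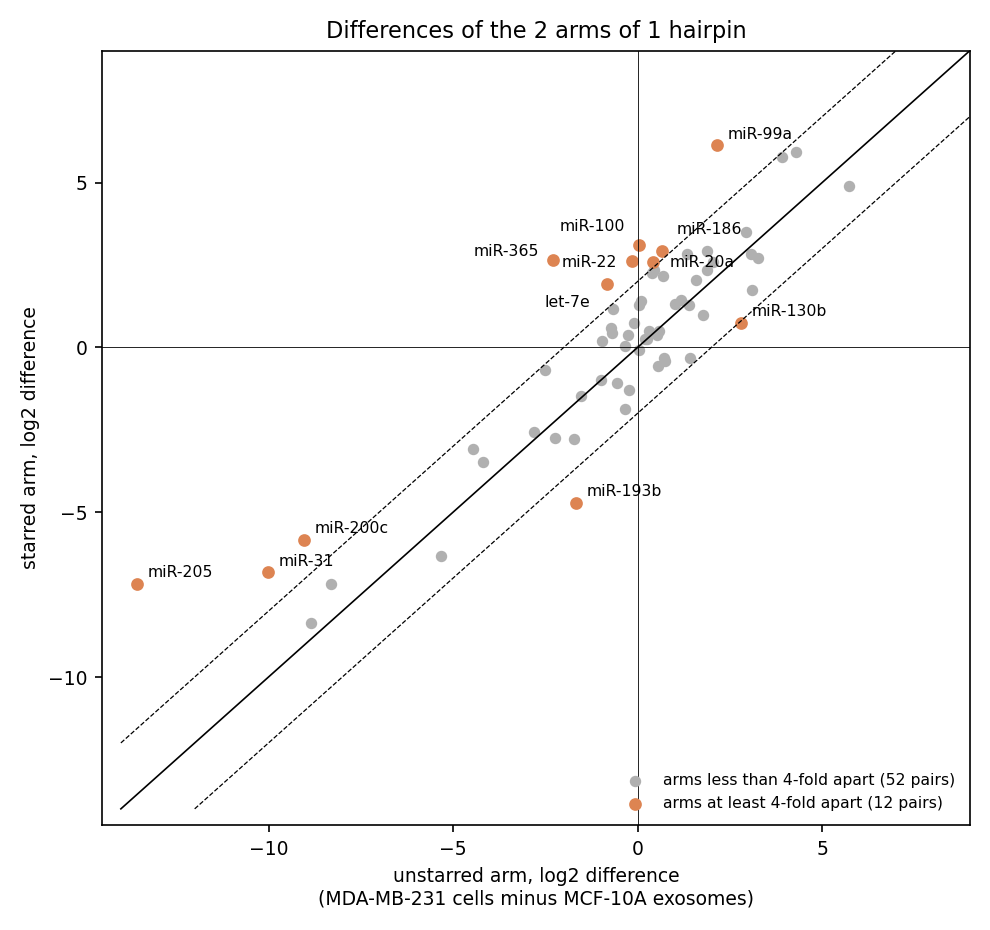
Differences of both arms of 64 hairpins (log2, MDA-MB-231 cells minus the MCF-10A exosomes), with the unstarred arm on the horizontal and the starred arm on the vertical axis; the solid line is equality and dashed lines are 4-fold. Of the 12 orange pairs at least 4-fold apart, 10 lie above the line; miR-205, miR-31 and miR-200c lie there with star arms of few reads.

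Short motifs reported to mark miRNAs for exosomes (GGAG and CCCU) or for the cell (GUUG) were counted on the mature strand of the 399 names (82.8%) matched to a RefSeq sequence. GGAG was held by 19.5% of lower names (15 of 77), 9.71% of higher names, 5.94% of names within 4-fold, 9.52% of all those matched and 15.7% of the 2370 mature sequences in the reference. CCCU was held by 2.60% of lower, 11.7% of higher and 7.31% of names within, against 7.52% of all those matched and 11.9% of the reference. For GUUG the shares were 18.2%, 7.77% and 11.4%, against 11.8% of all those matched and 7.22% of the reference. At 50 or more RP10M GGAG was in 18.9% of lower names (10 of 53), 7.58% of higher names and 6.15% of names within 4-fold. miR-205 and miR-1246 hold GGAG. The median GC content was 45.5% in lower names and 47.8% in higher names. These shares are descriptions of 3 motifs, names were counted singly although family members share sequence, and a match is not a bound site.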

How the data were processed

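The authors deposited log2 values with 2 decimals for 1100 miRNA names per library. Their scale came from the values themselves. Undoing the log and subtracting 1 gave totals near 10000000 for each library, and low values were whole multiples of 1 step within the rounding interval for 100% of values low enough to resolve single reads. The unit was therefore taken as log2 of reads per 10000000 miRNA reads (RP10M) plus 1, and reads were recovered from the step. Larger counts are known only to the rounding of 0.005 log2, or 0.347%. Intervals of folds were widened by it, but the Wilson intervals of shares were not and are too narrow for abundant names. The submitters' processing notes name Novoalign, edgeR and hg18 without saying what each was used for. Read assignment and the miRBase release are not given in the sources used here. Levels are shares of reads, and ligation and PCR favour some sequences, so levels of different names are compared less safely than 1 name between libraries.

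Differences of the deposited values, with no test, were the main result, and the recovered reads served as an alternative. Depths were about 7346076 reads (MDA-MB-231 cells), 1254641 (MCF-10A exosomes), 1532908 (MDA-MB-231 exosomes) and 10937895 (library labelled MCF-10A cell). The values were analysed in Python 3.11.15 with numpy 2.4.6, pandas 2.3.3 and scipy 1.17.1, and the recovery and the calls were tested on simulated data. Named miRNAs were the 15 highest and 15 lowest differences at 50 or more RP10M, the 10 leading names of each library and up to 4 members of each list, with all of the epithelial lists. The rule also took miR-105, miR-767-5p, miR-122, miR-210, arm pairs 4-fold apart, names at the minimum, the smallest differences among abundant names, and seed families of 3 or more. Members and lists were chosen with earlier results of these data known. Old names were matched by hand to current arm names, stars taking the opposite arm. Coordinates are of RefSeq GRCh38.p14 and host genes of GENCODE on GRCh38, matched by gene name. Alternatives changed the minimum, pseudocount, scaling, fold size, names counted and the read rule.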

Additional observations from a re-analysis of the deposited data

How the results depend on the processing

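No paired analysis was possible because each group held 1 library and the result comes from no test. The median of all names stayed above 0 under every alternative run, and no named difference or list median past 4-fold changed sign. The number of names higher in the MDA-MB-231 cells moved from 128 to 79 with a minimum of 50 RP10M, 82 with a pseudocount of 10 and 83 at 8-fold. It was 190 at 2-fold, 173 with no minimum and 92 on recovered reads. The number lower moved from 93 to 140 at 2-fold and to 51 on recovered reads. It was 63 with a minimum of 50 RP10M, 62 with a pseudocount of 10, 65 at 8-fold and 102 with no minimum. The median moved from 0.27 to 0.87 with no minimum, 0.48 with miR-21 left out of the total and 0.43 without the lists of other tissues. A minimum at 3 reads of the MCF-10A exosomes, chosen after seeing the data, gave 97 higher, 78 lower and a median of 0.19. Upper-quartile scaling gave 122, 98 and 0.18, and trimmed mean scaling 122, 95 and 0.22. Of 159 named differences, upper-quartile scaling turned the sign of 6, all near 0 (miR-100, miR-99b, miR-148a, miR-126, miR-142-3p, miR-192), and took miR-24, miR-15b and miR-217 inside 4-fold. A pseudocount of 10 took 10 named differences and 5 list medians (miR-15/16, erythroid, neural, 14q32 and 19q13) inside 4-fold. The depth of the MCF-10A exosomes limits the higher calls: 31 names at 0 there had a level in the MDA-MB-231 cells at or under the worth of 3 reads there.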

Other observations

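Further names, most outside the naming rule and chosen after their values were seen, differed between the libraries. miR-218, whose star arm miR-218-1* is among the 15 highest differences, stood at 11.88 in the MDA-MB-231 cells and 7.25 in the MCF-10A exosomes (24.9-fold higher, 15.8 to 41.5). miR-32, which shares its seed with miR-92a and miR-25, was 9.55-fold higher (6.61 to 14.4), while miR-92a was 1.52-fold lower (1.46 to 1.57). miR-877 was 7.74-fold higher (6.14 to 9.94), at 12.16 against 9.21. On the low side, miR-708 had 6 reads against 46 (44.7-fold lower, 19.1 to 129), and miR-149, from an intron of GPC1, had 45 against 142 (18.5-fold lower, 13.1 to 26.5). miR-3065-3p was 8.98-fold lower (6.33 to 12.9) and miR-629 6.98-fold lower (5.88 to 8.28). miR-375, a miRNA of pancreatic islets that is also found in luminal breast cells, had 2 reads against 29 (84.7-fold lower, 21.5 to 734).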
